A study of Rattus norvegicus with 6 samples.

Results

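The Reg (regenerating islet-derived) family was examined in RNA sequencing of 6 rat pancreas libraries. The 5 genes Reg1a, Reg3a, Reg3b, Reg3g and Reg4 were taken by symbol from the 34001 genes of the deposited table, where each symbol occurred once. The study used Sprague-Dawley rats with traumatic pancreatitis (TP), an injury made by striking and squeezing the exposed pancreas over 3 cm2 at a load of 10 kg. In control rats, laparotomy was done and the organ was only turned with swabs, and 1 ml saline was given by tail vein. Rats of the TP group were injured and received the same 1 ml saline, and rats of the TP+hucMSC-Exs group were injured and received exosomes of human umbilical cord mesenchymal stem cells at 10 µg per 100 g body weight by tail vein. Pancreas was taken at 24 h after injury from 2 rats in each of the 3 groups. Age and sex were not given in the sources used here, and neither was the delay between injury and injection. The exosomes were human while the recipients were rats, and no group received exosomes without injury.

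Reg proteins are small secreted lectin-like proteins made by pancreatic acinar cells and by the lining of the gut. Reg1a is the pancreatic stone protein (lithostathine), a regular product of resting acinar cells. The Reg3 proteins, known as pancreatitis-associated proteins, are strongly induced in acinar cells in pancreatitis, largely through cytokine receptors that use gp130 and the transcription factor STAT3. Reg3b and Reg3g bind bacterial surfaces in the gut, and Reg4 is best known from enteroendocrine and other intestinal epithelial cells.

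Values were TPM (a transcript abundance scaled to the same total in each library), which are relative to gene length and to the rest of the library, so that depth is unknown and no counting error can be given. All 17 acinar markers found were at 1 TPM or more in every library. The libraries differed in their make-up. Digestive enzymes took 59.3 to 83.7% of TPM in 5 libraries and 20.8% in TP replicate 2. The median gene, taken over the 11477 genes with a mean of at least 1 TPM, stood at 0.92 to 4 TPM in those 5 libraries and at 14.5 TPM in TP replicate 2. Summed markers of adipocytes (8 of 8 found) were 6593 TPM there against 27.6 to 62.7 TPM in the others, those of macrophages (10 of 10) 4930 against 24.6 to 788 TPM, and those of fibroblasts 4532 against 31.4 to 159 TPM. Markers of ducts (10 of 10 found) summed to 25.4 and 25.3 TPM in control, 52.4 and 585 TPM in TP and 175 and 246 TPM in TP+hucMSC-Exs, and those of neutrophils (8 of 8) to 0.61 and 3.97, 3.35 and 537, and 61.0 and 109.7 TPM in the same order. Both sums were higher in TP+hucMSC-Exs than in control. So were the macrophage and fibroblast sums, the detected Reg genes and, without overlap in TPM as deposited, 86.9% of all genes tested. The part of these differences in the Reg values was not tested. Leaving out a TP library leaves 1 library in that group, and the shared spread of the fit then holds no difference within TP. In TP against control and in TP+hucMSC-Exs against TP, the number of genes passing then depended strongly on which TP library was left out. The reason was not tested. Where most genes passed in such a fit, a call of a Reg gene is not particular to it. In bulk tissue, fewer cells of a type and less RNA per cell cannot be told apart.

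In the RefSeq GRCr8 assembly, Reg3b, Reg3a, Reg1a and Reg3g are neighbours on chromosome 4, in that order, with the pseudogene Reg3b-ps1 between Reg3b and Reg3a and the non-coding gene LOC102556035 between Reg1a and Reg3g. Reg4 is on chromosome 2. The 250 bases before the start of the 4 clustered genes are shown because these are the Reg genes that were detected. Sequences and positions are those of RefSeq (GRCr8) and do not come from the deposited table. Capitals mark every match to 3 short motifs searched on both strands: TTCNNNGAA, the palindrome that STAT factors bind, TTGCNNAA, a form of the C/EBP element, and TATAAA, the TATA box.
Reg1a (chr4:112450216-112450465, plus strand): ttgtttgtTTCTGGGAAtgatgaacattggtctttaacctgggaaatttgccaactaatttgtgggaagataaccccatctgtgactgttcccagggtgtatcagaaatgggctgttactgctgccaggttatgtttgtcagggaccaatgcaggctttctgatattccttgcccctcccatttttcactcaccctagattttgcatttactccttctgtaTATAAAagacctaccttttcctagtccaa
Reg3a (chr4:112430147-112430396, plus strand): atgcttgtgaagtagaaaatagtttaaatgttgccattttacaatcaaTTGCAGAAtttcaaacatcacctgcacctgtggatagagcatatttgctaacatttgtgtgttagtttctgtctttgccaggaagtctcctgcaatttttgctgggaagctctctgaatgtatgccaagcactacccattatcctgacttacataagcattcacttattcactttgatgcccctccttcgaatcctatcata
Reg3b (chr4:112419526-112419775, plus strand): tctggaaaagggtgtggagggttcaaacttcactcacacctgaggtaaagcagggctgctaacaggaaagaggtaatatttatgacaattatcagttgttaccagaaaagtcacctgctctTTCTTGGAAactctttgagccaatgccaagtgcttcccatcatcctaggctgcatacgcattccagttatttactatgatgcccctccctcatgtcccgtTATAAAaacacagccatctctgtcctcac
Reg3g (chr4:112484739-112484988, minus strand): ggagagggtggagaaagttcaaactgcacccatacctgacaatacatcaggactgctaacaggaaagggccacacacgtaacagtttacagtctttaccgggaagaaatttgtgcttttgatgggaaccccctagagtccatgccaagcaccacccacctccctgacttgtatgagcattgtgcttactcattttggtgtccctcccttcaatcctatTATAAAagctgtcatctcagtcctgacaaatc

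The STAT-type palindrome was present in Reg3b as TTCTTGGAA, 129 to 121 bases before the start, and in Reg1a as TTCTGGGAA, 242 to 234 bases before it. In an alignment with Reg3b, the bases at that position were TGCTGGGAA in Reg3a, identical at 7 of 9 positions, and TGATGGGAA in Reg3g, identical at 6 of 9. The C/EBP-type element was found in Reg3a as TTGCAGAA, 202 to 195 bases before the start. TATAAA began 29 bases before the start of Reg1a and of Reg3b and 32 bases before that of Reg3g, and was not found in the window of Reg3a, for which the table lists more than 1 start. Of 27457 rat promoter windows of the same length, 7.50% held TTCNNNGAA, 9.21% held TTGCNNAA and 13.1% held TATAAA. None of the 3 motifs was in the window of Reg4. Pairs of Reg3 promoters were 68.8 to 69.9% identical over their aligned bases, and Reg1a was 59.6 to 65.0% identical to them. The longest runs present in all 3 Reg3 promoters were the 8-base runs ATGCCAAG and TGCTAACA. A match is a description of letters and not evidence of binding.

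Reg1a (ENSRNOG00000006486) was the leading Reg transcript of control pancreas. It stood at 5427 and 6028 TPM in the control libraries, at 12749 and 2703 TPM in TP replicates 1 and 2, and at 15062 and 16809 TPM in TP+hucMSC-Exs. The TP values lay on both sides of the controls, and both TP+hucMSC-Exs libraries were above the other 4. Group means were 5727 ± 425 TPM in control, 7726 ± 7104 TPM in TP and 15936 ± 1235 TPM in TP+hucMSC-Exs (SD, n = 2 each), the last being 2.78 times the control mean. In limma, the log2 fold change of TPM + 0.5 was 0.04 ± 0.69 (SE) for TP against control (adjusted p = 0.967), 1.44 ± 0.69 for TP+hucMSC-Exs against TP (adjusted p = 1) and 1.48 ± 0.69 for TP+hucMSC-Exs against control (adjusted p = 0.799). None passed the threshold of 0.05. The spread in this fit is shared by the 3 groups, and without TP replicate 1 or 2 the last difference, still 1.48, had an adjusted p of 0.0178 or 0.0161 in limma, in fits where 6031 and 6019 of all genes passed. The difference from TP was 2.56 without TP replicate 1 (adjusted p = 0.00196 in limma, where 9537 genes passed) and 0.32 without TP replicate 2 (0.267). Against control, TP replicate 2 alone was lower by a log2 fold change of -1.08 (limma adjusted p = 0.00546, where 10706 genes passed) and TP replicate 1 alone stood at 1.16 (adjusted p = 0.664).

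Reg3a (ENSRNOG00000006360), a pancreatitis-associated protein, was a lower but steady component of control pancreas. Its values were 631 and 684 TPM in control, 6879 and 1025 TPM in TP and 19342 and 25204 TPM in TP+hucMSC-Exs. The 3 groups did not overlap. Its mean was 658 ± 37.8 TPM in control, 3952 ± 4139 TPM in TP and 22273 ± 4145 TPM in TP+hucMSC-Exs (SD, n = 2 each), or 6.01 and 33.9 times the control mean in the injured groups. Reg3a rose in TP+hucMSC-Exs against control, with a log2 fold change of 5.07 ± 0.80 (limma adjusted p = 5.69e-07). The standard error from its own values was 1.13, larger than the 0.80 of limma. The values for TP against control, 2.01 ± 0.80 (adjusted p = 0.555), and for TP+hucMSC-Exs against TP, 3.06 ± 0.80 (adjusted p = 0.0870), did not pass in limma. The rise against control did not pass without control replicate 1 or 2 (limma adjusted p = 0.173 and 0.178) or without TP+hucMSC-Exs replicate 1 or 2 (0.649 and 0.970), where the log2 fold change stayed between 4.88 and 5.26. For TP against control the value was 0.64 without TP replicate 1 and 3.39 without TP replicate 2. For TP+hucMSC-Exs against TP it was 4.43 and 1.68 in the same order.

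Reg3b (ENSRNOG00000006151) had the widest climb in rank among the abundant members. It was the 138th and 146th highest gene of the control libraries, at 200.4 and 247 TPM. It ranked 16th and 87th in TP, at 15906 and 1902 TPM, and 4th and 3rd in TP+hucMSC-Exs, at 38509 and 45798 TPM. The groups did not overlap, and even the lower TP library was at least 7.69 times each control. The pairwise ratios of TP+hucMSC-Exs to control libraries ran from 156 to 229. Reg3b rose in TP against control, with a log2 fold change of 4.62 ± 0.79 (limma adjusted p = 2.62e-05), and in TP+hucMSC-Exs against control, with 7.56 ± 0.79 (adjusted p = 1.16e-17). The difference between TP+hucMSC-Exs and TP, 2.93 ± 0.79, did not pass (limma adjusted p = 0.110). It was 4.46 without TP replicate 1 and 1.40 without TP replicate 2. The rise in TP against control was 3.09 and 6.16 without these libraries. That rise did not pass without control replicate 1 or 2 or without TP+hucMSC-Exs replicate 1 or 2. The rise in TP+hucMSC-Exs against control lay between 7.41 and 7.71 in the fits that left out 1 library. The TP libraries of Reg3b differed by 3.06 on the log2 scale, and the standard error from its own 6 values was 1.26, larger than the 0.79 that limma took from genes of like abundance.

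Reg3g (ENSRNOG00000006579), the other antibacterial Reg3 lectin, was near the lower limit of the table in control pancreas. It was listed at 0.13 and 0.37 TPM in control, at 75.3 and 1.40 TPM in TP and at 756 and 1781 TPM in TP+hucMSC-Exs. The groups did not overlap, although TP replicate 2 was much nearer to control than to TP replicate 1. Its rank went from 11171st and 11155th in control to 256th and 13079th in TP and to 92nd and 45th in TP+hucMSC-Exs. Reg3g rose in TP+hucMSC-Exs against TP, by a log2 fold change of 6.60 ± 1.39 (limma adjusted p = 0.00593), and against control, by 10.61 ± 1.39 (adjusted p = 1.28e-10). For TP against control the value was 4.02 ± 1.39 (limma adjusted p = 0.555), and it was 1.36 without TP replicate 1 and 6.68 without TP replicate 2. The rise against TP was 9.255 and 3.94 without these libraries. The TP libraries of Reg3g differed by 5.32 on the log2 scale, and the standard error from its own values was 2.24, larger than the 1.39 of limma. Control values were below the 0.5 added before the logarithm, and Reg3g entered the test only through its injured libraries. The rise against TP did not pass without control replicate 1 or 2 (limma adjusted p = 0.692 and 0.468) or either TP+hucMSC-Exs replicate (1 and 1), and that against control did not pass without TP+hucMSC-Exs replicate 2 (0.0790).

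Reg4 (ENSRNOG00000019046), the intestinal member, was listed at 0 in all 6 libraries and was not tested. Of the 14 intestinal epithelial markers, 13 were in the table, and their summed level was 4.53 to 4.89 TPM in control, 2.5 to 5.15 TPM in TP and 14.8 to 18.8 TPM in TP+hucMSC-Exs. Nearly all of this sum was Vil1, an epithelial cytoskeletal protein, at 4.37 and 4.33 TPM in control and 11.65 and 13.26 TPM in TP+hucMSC-Exs, with Tff3 at 2.85 and 4.82 TPM in TP+hucMSC-Exs. Lgals4 stood at 0 and 0.08 TPM in control, 0 and 0.34 TPM in TP and 0.29 and 0.71 TPM in TP+hucMSC-Exs. Alpi, Apoa4, Cdx1, Defa5, Fabp2 and Si were at 0 in every library. The source of these transcripts was not tested.

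**Figure D1:**
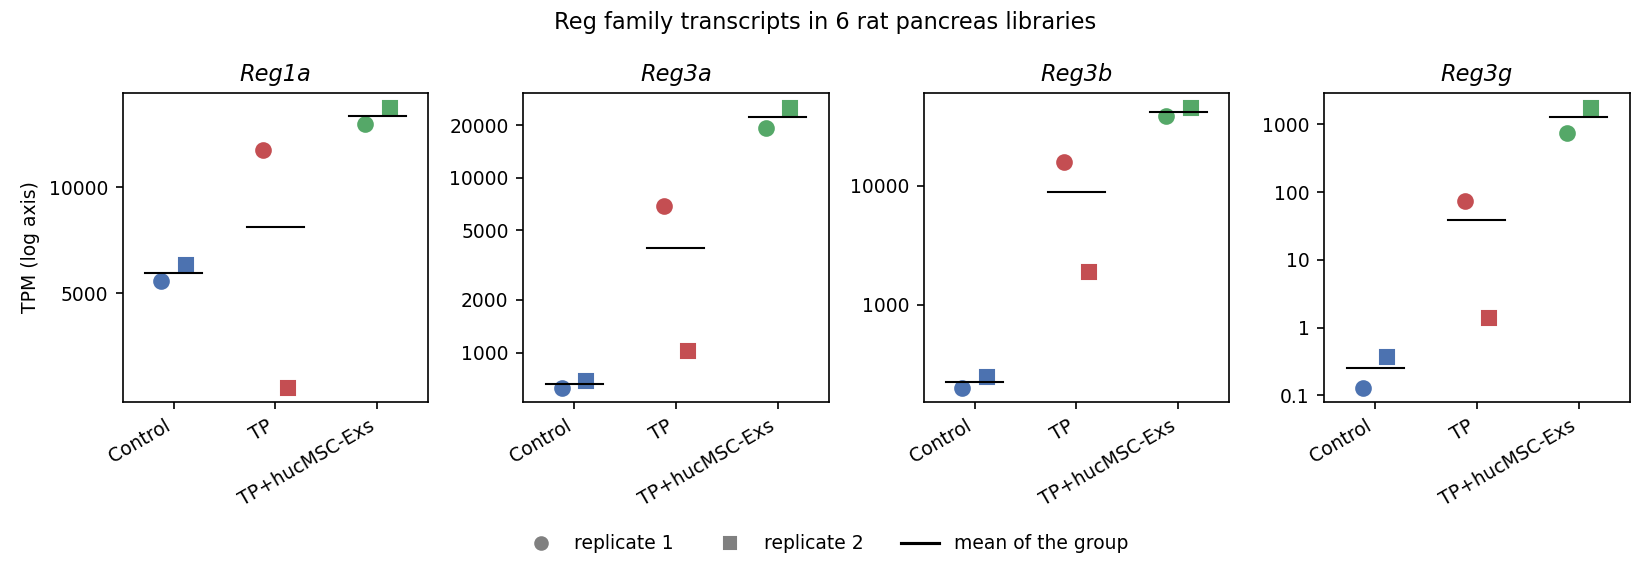
TPM of the 4 detected Reg genes on a log axis, with 1 point per library and a line at the group mean. Both TP+hucMSC-Exs libraries lie above all others for each gene, while the TP libraries are far apart (15906 and 1902 TPM for Reg3b).

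Of the 5 members, 4 passed the filter on low values. In all, 1 of the 4 tested members rose in TP against control (Reg3b), beside 0.0523% of the 11477 genes tested. In TP+hucMSC-Exs against TP, 1 of 4 rose (Reg3g), beside 0.0523% of genes tested. In TP+hucMSC-Exs against control, 3 of 4 rose (Reg3a, Reg3b and Reg3g), beside 0.209% of genes tested. Reg3g is among the tested genes only because of the injured libraries in which it was high, so its place in these counts is not independent of its level there. No member fell. Counting only whether the libraries of 2 groups were apart gives less contrast with other genes. Higher without overlap were 3 of 4 members in TP against control (23.1% of genes tested), 4 of 4 in TP+hucMSC-Exs against TP (5.09%) and 4 of 4 in TP+hucMSC-Exs against control (86.9%). The last share is near that of the members, so that the absence of overlap with control says little about the Reg genes. With 2 libraries against 2, an exact permutation test of a single gene could not give a two-sided p below 0.333. The comparisons share libraries, TP and TP+hucMSC-Exs being set against the same controls.

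Relative to the median gene of each library, the TP libraries lay further apart and more of the groups overlapped. Reg1a was 11.90 and 11.43 log2 units above the median gene in control, 12.84 and 7.49 in TP and 11.99 and 11.87 in TP+hucMSC-Exs, and the groups overlapped. Reg3a was 8.80 and 8.29 above it in control, 11.95 and 6.09 in TP and 12.35 and 12.45 in TP+hucMSC-Exs. Reg3b was 7.14 and 6.83 above it in control, 13.16 and 6.99 in TP and 13.34 and 13.31 in TP+hucMSC-Exs. On this scale TP replicate 1 lay close to the TP+hucMSC-Exs libraries for Reg3b, and TP replicate 2 lay within the controls. Reg3g was 1.17 and 1.32 below the median gene in control, 5.45 above and 2.98 below it in TP and 7.67 and 8.63 above it in TP+hucMSC-Exs.

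**Figure D2:**
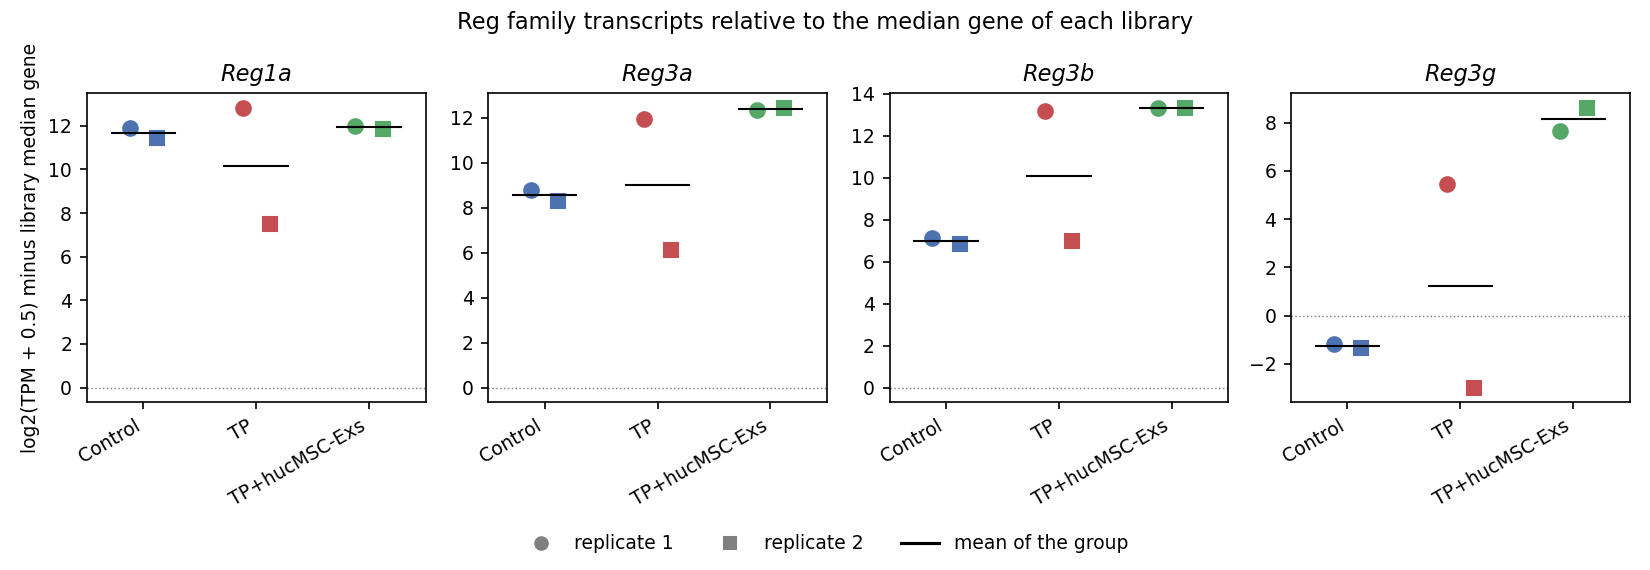
Level of each detected Reg gene as log2(TPM + 0.5) minus that of the library's median gene (dotted line at 0), with 1 point per library and a line at the group mean. TP replicate 2 lies below the controls or, for Reg3b at 6.99, among them, while TP replicate 1 stands at 13.16 near the TP+hucMSC-Exs libraries.

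On the median-gene scale none of the 4 members passed in limma in any comparison, beside 0% of all genes in TP against control, 0% in TP+hucMSC-Exs against TP and 0% in TP+hucMSC-Exs against control. At an unadjusted p under 0.05, limma gave 525, 1305 and 1372 genes in these comparisons. The log2 fold changes for TP+hucMSC-Exs against control were 0.26 ± 1.88 for Reg1a, 3.85 ± 1.97 for Reg3a, 6.34 ± 2.07 for Reg3b and 9.40 ± 2.72 for Reg3g (limma adjusted p = 0.957, 0.482, 0.402 and 0.376). Those for TP against control were -1.501 ± 1.88, 0.48 ± 1.97, 3.09 ± 2.07 and 2.48 ± 2.72 in the same order. The standard errors were larger than for TPM as deposited. Without TP replicate 1, and likewise without TP replicate 2, 3 of 4 members passed in TP+hucMSC-Exs against control, in fits where 1237 and 1243 of the 11477 genes passed. With the libraries of the groups apart and higher were 0 of 4 members in TP against control (16.6% of genes tested), 3 of 4 in TP+hucMSC-Exs against TP (17.0%) and 3 of 4 in TP+hucMSC-Exs against control (27.6%), the exception in the latter comparisons being Reg1a.

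Together the Reg genes made up 0.626 and 0.696% of all TPM in control, 3.56 and 0.563% in TP and 7.37 and 8.96% in TP+hucMSC-Exs. Their make-up differed between the groups as well. In control, Reg1a supplied 86.7 and 86.6% of Reg TPM, Reg3a 10.1 and 9.83%, Reg3b 3.20 and 3.55% and Reg3g 0.00208 and 0.00532%. In TP, Reg1a supplied 35.8 and 48.0%, Reg3a 19.3 and 18.2% and Reg3b 44.7 and 33.8%. In TP+hucMSC-Exs, Reg3b supplied 52.3 and 51.1%, Reg3a 26.2 and 28.1%, Reg1a 20.4 and 18.8% and Reg3g 1.03 and 1.99%. The order of levels was thus Reg1a, Reg3a, Reg3b and Reg3g in control, with each gap wider than the spread of the libraries. It was Reg3b, Reg3a, Reg1a and Reg3g in both TP+hucMSC-Exs libraries, with no overlap between genes. There the gap between Reg3a (19342 and 25204 TPM) and Reg1a (15062 and 16809 TPM) was narrower than the spread of Reg3a. In TP, Reg3b led in replicate 1 and Reg1a in replicate 2, with Reg3a below both in each library. Across the TP libraries, the levels of Reg1a, Reg3a and Reg3b did not separate beyond their spread. TP replicate 2, whose Reg sum was below the controls, still had the mixed make-up of the injured libraries.

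**Figure D3:**
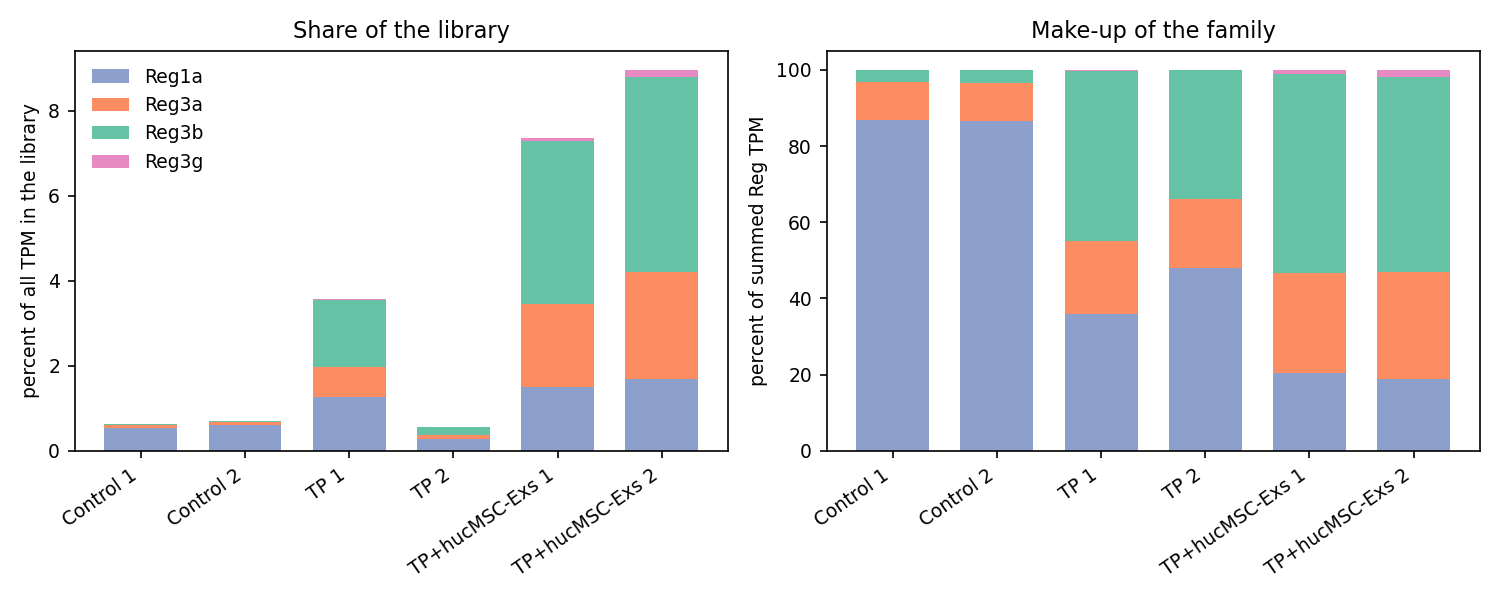
Left, the Reg genes as a percent of all TPM in each library; right, each gene as a percent of the summed Reg TPM. Reg1a fills 86.6 to 86.7% of the sum in control and 18.8 to 20.4% in TP+hucMSC-Exs, with both TP libraries in between.

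A ratio between members within a library does not depend on how the library is scaled. Reg3b to Reg3a was 0.318 and 0.361 in control, 2.31 and 1.85 in TP and 1.99 and 1.82 in TP+hucMSC-Exs. All 4 injured libraries lay above both controls, and the injured groups overlapped, with means of 6.14 and 5.61 times that of control. Reg3b to Reg1a was 0.0369 and 0.0410 in control, 1.25 and 0.704 in TP and 2.56 and 2.72 in TP+hucMSC-Exs, and the 3 groups did not overlap. The means were 25.04 times control in TP and 67.8 times control in TP+hucMSC-Exs. Reg3a to Reg1a was 0.116 and 0.113 in control, 0.540 and 0.379 in TP and 1.284 and 1.499 in TP+hucMSC-Exs, again with no overlap. Reg3g to Reg3b was 0.000649 and 0.001497 in control, 0.00473 and 0.000736 in TP and 0.0196 and 0.0389 in TP+hucMSC-Exs. Here TP overlapped control, and both TP+hucMSC-Exs libraries were higher. These ratios have 2 values a group, which allow no exact two-sided p below 0.333.

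**Figure D4:**
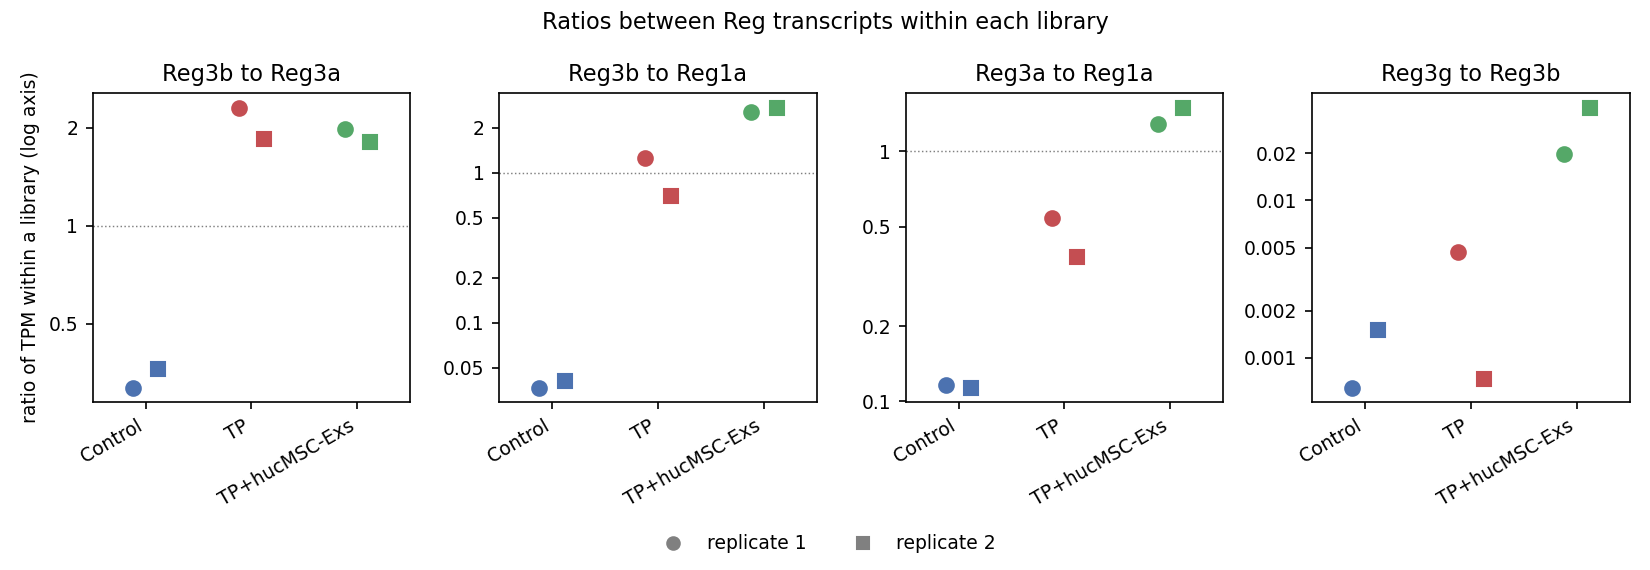
Ratios between Reg genes within each library, on log axes, with 1 point per library; the dotted line marks equal levels. The Reg3b to Reg3a ratio separates control (0.318 and 0.361) from all injured libraries (1.82 to 2.31), while the Reg3b to Reg1a and Reg3a to Reg1a ratios place TP between control and TP+hucMSC-Exs.

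Set against the summed digestive enzymes, the other main product of acinar cells, all 4 members were ordered control, TP, TP+hucMSC-Exs with no overlap. Reg TPM per 100 TPM of 28 enzyme genes was 0.748 and 0.869 in control, 4.59 and 2.71 in TP and 11.3 and 15.1 in TP+hucMSC-Exs. For Reg1a alone it was 0.649 and 0.753, then 1.64 and 1.30, then 2.32 and 2.84 in the same order. For Reg3b it was 0.0240 and 0.0309, then 2.05 and 0.916, then 5.93 and 7.73. The enzymes themselves took a smaller share of every injured library than of either control. On this scale 4 of 4 members were higher without overlap in each comparison, beside 28.1% of genes tested in TP against control, 2.59% in TP+hucMSC-Exs against TP and 91.0% in TP+hucMSC-Exs against control.

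Likeness of pattern was described by Pearson's r of log2(TPM + 0.5) over the 6 libraries, which share 3 group levels and the make-up of TP replicate 2, so that no p is given. Among the members, Reg3a and Reg3g were most alike (r = 0.999), Reg3a and Reg3b had r = 0.969, and Reg1a and Reg3b were least alike (r = 0.754). Among 10008 other named genes, those nearest to Reg1a were Nr0b2, an orphan nuclear receptor (r = 0.998), Enox1 (r = 0.995) and Sctr, the secretin receptor (r = 0.995). Sctr stood at 8.89 and 9.18 TPM in control, 13.6 and 6.10 TPM in TP and 16.6 and 17.8 TPM in TP+hucMSC-Exs. Those nearest to Reg3a and to Reg3g were C2cd4b, A2m and F2, with r of 0.986 to 0.998. A2m, an acute-phase protease inhibitor of the rat, was also nearest to Reg3b (r = 0.966), followed by Fuca2, a secreted fucosidase (r = 0.956), and C2cd4b (r = 0.955). A2m stood at 0 and 0.26 TPM in control, 7.03 and 0.58 TPM in TP and 15.8 and 36.8 TPM in TP+hucMSC-Exs, low levels with the same low value in TP replicate 2.

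Ligands known to induce Reg genes were mostly below the filter on low values. Of 11 listed, 2 passed it and neither passed the test in any of the 3 comparisons. Il1b, the ligand with the highest mean, stood at 0.03 and 0.31 TPM in control, 0.24 and 26.7 TPM in TP and 1.18 and 2.56 TPM in TP+hucMSC-Exs. Il6 did not exceed 0.69 TPM, and Il22, the main Reg3 inducer of the gut, was listed at 0 in all libraries. Lif stood at 0 and 0.03 TPM in control, 0 and 1.10 TPM in TP and 0.77 and 0.99 TPM in TP+hucMSC-Exs. Osm reached 2.46 TPM in TP replicate 2 and 0.31 TPM in TP+hucMSC-Exs replicate 2. Il6, Il22, Lif and Osm were named after their values were seen. The high Il1b value was in TP replicate 2, the library with the highest macrophage markers and the lower Reg levels of its group.

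Their receptors were all measured, and 0 of 12 passed the limma test in any comparison. The median log2 fold change of the list was 1.84 in TP against control, -0.01 in TP+hucMSC-Exs against TP and 1.86 in TP+hucMSC-Exs against control, beside 1.495, -0.38 and 1.09 over all genes tested. Tnfrsf1a, the TNF receptor with the highest mean of the list, was at 2.36 and 4.43 TPM in control, 4.70 and 137 TPM in TP and 14.4 and 21.5 TPM in TP+hucMSC-Exs. Downstream, 0 of 14 JAK-STAT3 and acute-phase factors passed, with list medians of 1.82, -0.20 and 1.68. Stat3 transcripts stood at 4.65 and 7.88 TPM in control, 5.67 and 61.5 TPM in TP and 17.6 and 23.3 TPM in TP+hucMSC-Exs, with a log2 fold change of 1.66 ± 1.41 for TP+hucMSC-Exs against control (limma adjusted p = 0.799). Relative to the median gene Stat3 lay between 1.83 and 2.40 log2 units in all 6 libraries. On that scale the list medians were 0.28, 0.12 and 0.46, beside -0.04, -0.05 and -0.12 over all genes tested. In TP+hucMSC-Exs against control the list ran from -1.30 for Socs1 to 2.71 for Atf3, both named after their values were seen. Transcript levels do not measure STAT3 phosphorylation. With standard errors such as the 1.41 of Stat3, a gene that did not pass is not shown to have stayed level. Of the candidate receptors for Reg proteins, 3 of 4 passed the filter and 0 passed the test, with list medians of 1.12, -0.03 and 1.496. Cd44, a cell adhesion receptor, had the highest mean of these, at 0.35 and 3.04 TPM in control, 1.04 and 147 TPM in TP and 10.99 and 18.29 TPM in TP+hucMSC-Exs.

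Among other injury-induced secretory and stress proteins of the pancreas, 10 of 14 were tested. Of these 1 rose in TP against control (Lcn2), 2 in TP+hucMSC-Exs against TP (Clu and Nupr1) and 3 in TP+hucMSC-Exs against control (Clu, Lcn2 and Nupr1), and none fell. The list medians were -0.78, 1.34 and 1.16. Lcn2, a lipocalin that binds bacterial iron carriers, stood at 2.88 and 2.78 TPM in control, 216 and 560 TPM in TP and 431 and 632 TPM in TP+hucMSC-Exs, so that unlike Reg3b it was higher in TP replicate 2 than in replicate 1. Sycn, a zymogen granule protein with the highest mean of the list, was at 20172 and 19155 TPM in control, 17816 and 5034 TPM in TP and 18635 and 18142 TPM in TP+hucMSC-Exs. Reg3b was thus above Sycn in both TP+hucMSC-Exs libraries and below it in the other 4.

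Among the other secreted antimicrobial proteins, 10 of 14 were tested. Of these 1 rose in TP against control (Lcn2), 0 in TP+hucMSC-Exs against TP and 2 in TP+hucMSC-Exs against control (Lcn2 and Wfdc2), with list medians of 3.57, 0.60 and 4.38. Wfdc2, a secreted protein with whey acidic protein domains, was at 0.71 and 1.05 TPM in control, 2.24 and 5.39 TPM in TP and 54.9 and 94.0 TPM in TP+hucMSC-Exs, and its log2 fold change against control was 5.72 ± 1.43 (limma adjusted p = 0.0397). Lyz2, the macrophage lysozyme with the highest mean of the list, was at 5.41 and 103 TPM in control, 24.4 and 3707 TPM in TP and 335 and 649 TPM in TP+hucMSC-Exs. Its highest value was in TP replicate 2, where each detected Reg gene was lower than in replicate 1.

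**Figure D5:**
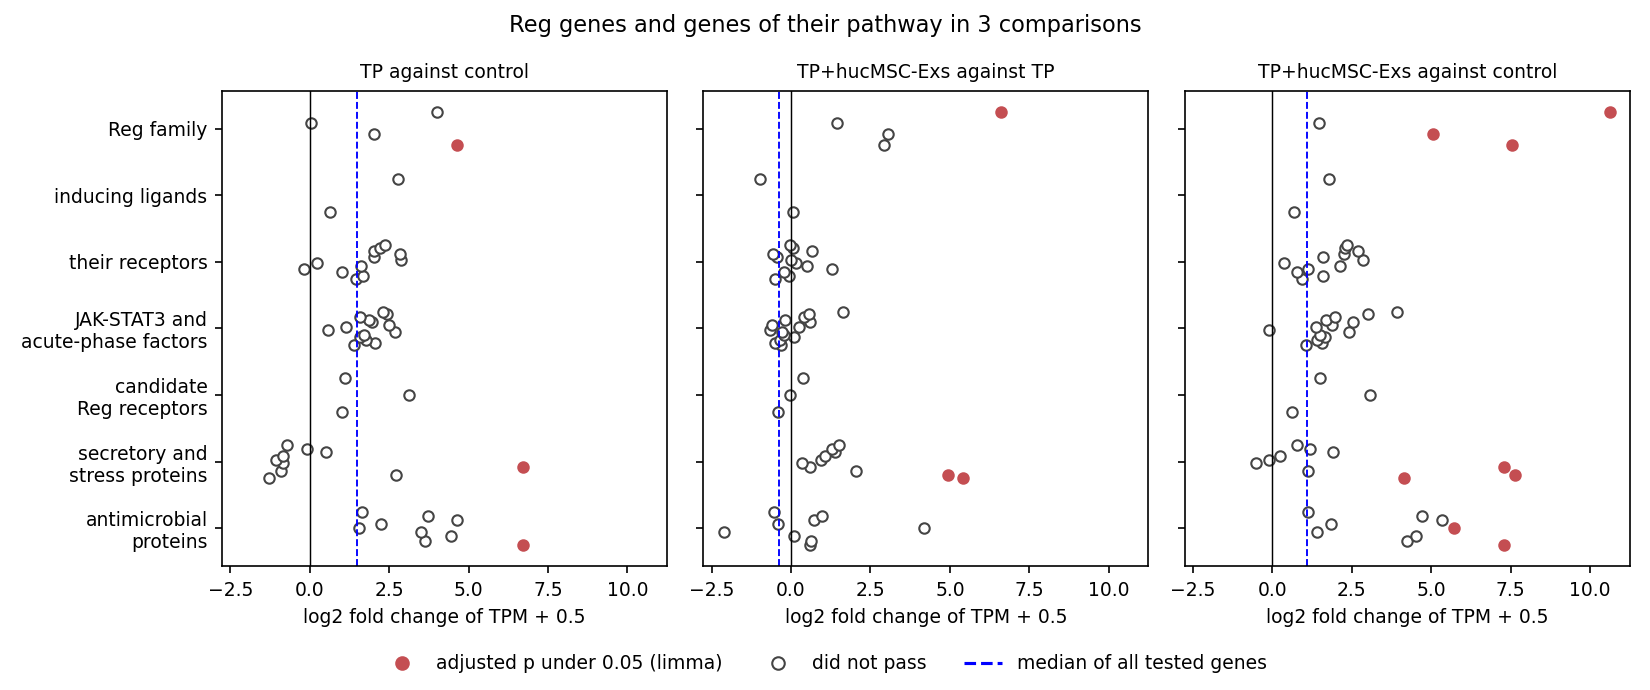
Log2 fold change of TPM + 0.5 for each tested gene of the Reg family and of the pathway lists in 3 comparisons; filled points passed limma at an adjusted p under 0.05, and the dashed line is the median of all genes tested. In TP+hucMSC-Exs against control, Reg1a stands at 1.48, Reg3a at 5.07, Reg3b at 7.56 and Reg3g, near the lower limit in control, at 10.61. The ligands (2 of 11 tested), receptors and JAK-STAT3 factors hold no filled point, which does not show that they stayed level.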

How the data were processed

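The authors deposited gene-level TPM values, 1 column per library and 34001 genes (32883 with rat Ensembl identifiers), together with group means that equal the means of the 2 libraries; gene names were taken from that table. Per the labels' protocols, a SMARTer mRNA kit was used on total RNA. Mouse builds, GRCm38 and mm10, stand in the submitters' processing notes although the identifiers are rat. No source used here gives the aligner or the counting method. How reads were divided among the similar Reg genes and Reg3b-ps1 is therefore uncertain. The TP columns carry a number that no label explains and were assigned by name and replicate number.

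The members and gene lists were chosen with earlier results of these data known. Genes with a mean of at least 1 TPM (11477; 14485 were 0 throughout) were fitted as log2(TPM + 0.5), which understates changes of low genes, in limma 3.58.1 (R 4.3.3) over all 6 libraries with a variance trend, with 3 residual degrees of freedom, infinite prior degrees of freedom and Benjamini-Hochberg adjustment over all genes tested (threshold 0.05). The method was tested on simulated data. Named beside the members were list genes past the threshold, the highest-mean gene of each list and the 3 genes most correlated with each member. Gene order and promoters came from RefSeq GRCr8 and were aligned with Biopython 1.88; 250 bases before the start are shown and the 50 bases after it were left out. Alternatives covered the pseudocount, filter, scaling, variance trend, samples fitted, replicate block and each library left out.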

Additional observations from a re-analysis of the deposited data

How the results depend on the processing

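In TP+hucMSC-Exs against control and against TP, Reg3a, Reg3b and Reg3g kept a positive log2 fold change under all 19 alternatives run for each, from 3.62 to 5.26, 6.11 to 7.71 and 9.40 to 11.79 against control, and from 0.45 to 6.31, 0.17 to 6.34 and 2.71 to 11.13 against TP. Their calls depended on the setting, and the cause was not tested. The number of members called in TP against control (1 as reported) was 0 when centred on the median gene, with median-of-ratios scaling, with no filter, without the variance trend, with only the 2 groups compared, with quantile normalization and with rescaling without the digestive enzymes. In TP+hucMSC-Exs against TP (1 as reported) it was 0 when centred, with median-of-ratios scaling, with no filter, with only the 2 groups compared, with quantile normalization and with rescaling. In TP+hucMSC-Exs against control (3 as reported) it was 0 when centred, with median-of-ratios scaling, with no filter, with quantile normalization and with rescaling. In each comparison the number also depended on which library was left out, in fits that leave 1 library in a group. Centring together with leaving out a TP library was added after seeing the data: without TP replicate 1 it called 3 members in TP against control, all lower (Reg1a, Reg3a and Reg3g), and 4 in TP+hucMSC-Exs against TP, where 4102 and 3114 of all 11477 genes were called; without TP replicate 2 it called 0 in both, beside 0 and 117 of all genes.

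Reg1a in TP against control changed sign, from 0.04 to -1.50 when centred, -1.70 with median-of-ratios scaling, -1.12 with quantile normalization and -1.19 with rescaling, and ran from -1.08 to 1.16 when 1 library was left out (-0.04 without control replicate 1). Centred and without TP replicate 1, TP against control was -4.17 for Reg1a, -2.45 for Reg3a, -0.0016 for Reg3b and -1.73 for Reg3g; centred and without TP replicate 2, TP+hucMSC-Exs against TP was -0.91 for Reg1a. The number of all genes called was 6, 8 and 24 in TP against control, TP+hucMSC-Exs against TP and TP+hucMSC-Exs against control. It was 0, 2 and 2 with median-of-ratios scaling, 2, 0 and 5 with rescaling, 0 in each with no filter, with quantile normalization and when centred, and 10706, 9537 and 6031 without TP replicate 1. Replicate numbers are shared by the groups, and the sample labels used here do not say that they pair the rats. Differences between replicates 1 and 2 correlated weakly between groups (r = 0.279, 0.0804 and 0.135). These correlations cannot decide whether same-numbered libraries belong together, since the TP difference also holds the make-up of TP replicate 2. With the replicate block, 1, 3 and 3 members were called, beside 10, 22 and 35 of all genes, Reg3a and Reg3b being added in TP+hucMSC-Exs against TP. TPM hold no depth, so that low values such as those of Reg3g in control have no known precision.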
